A study of Arabidopsis thaliana with 16 samples.

Results

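RAB7A, RABH1d, RABA1e, RABE1e and SGP2 are 5 genes of Arabidopsis thaliana that encode small GTPases, and each had 1 probe set among the 22810 of the ATH1 array, 22746 without the control probe sets. They were chosen by name because earlier results of the same arrays placed their transcripts high or low in root hairs and pollen. The levels in those cells are therefore given as a description without a test. SGP2 was found by its symbol in the annotation of the platform, and the other 4 were found by locus in tables of the study, which pair probe sets with genes. The study asked which transcripts are shared by the 2 plant cell types that grow at a tip.

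Small GTPases are molecular switches that are active with GTP bound and inactive with GDP bound. The Rab family directs vesicles between membranes, and each subgroup is tied to a step of that traffic: RABG (the plant Rab7) to late endosomes and the vacuole, RABH1 (the plant Rab6) to the Golgi, RABA1 (one of the plant Rab11 subgroups) to the trans-Golgi network and recycling to the plasma membrane, and RABE1 (the plant Rab8) to transport from the Golgi to the plasma membrane. SGP2 and its close relative SGP1 resemble the small GTPases that control septum formation in fission yeast. Growth of root hairs and pollen tubes depends on secretion of membrane and wall material at the apex.

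All samples were wild-type Columbia plants (Col-0), with 2 biological replicates of each of 8 sample types, 16 arrays in all. Root hairs were brushed off plants that had been frozen after 4 or 5 days on cellophane, and pollen consisted of mature grains that were sorted by flow cytometry, so pollen tubes were not measured. The other sample types were whole seedlings grown for 7 days on plates, open flowers, siliques, ovules cut out of unpollinated pistils, whole unpollinated pistils and rosette leaves. Seedlings contain root hairs, flowers contain pollen, and pistils contain ovules. Root hair RNA was amplified in 2 cycles before labelling, and the arrays of the other sample types came from earlier studies of pollen and of reproductive tissues, so cell type and preparation cannot be told apart.

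An intensity of 216, equal to 3 times the pseudocount, was taken as the level of detection. This cut-off is not the Present call of the study, which also counted dimmer transcripts as expressed, such as PRF5 in root hairs at 165. Below detection therefore does not mean absent. Between 18.3% and 31.1% of probe sets exceeded 216 on the root hair and pollen arrays, against 48.2% to 54.3% on the tissue arrays. Replicates correlated at 0.990 to 0.998 across probe sets. All 7 root hair markers were above detection in root hairs, and at most 2 of 7 were in any other sample type. The 7 measured pollen markers were all above detection in pollen, 6 were in flowers, 4 in root hairs and none in the other sample types. Green tissue markers were below detection in root hairs and pollen, 0 of 3 in each. Of 2 inner root markers, CASP1 of the endodermis had a mean above detection in root hairs, at 266 ± 110.4 against 1489.7 ± 109.7 in seedlings. The spread of CASP1 in root hairs reached below the detection level. SUC2 of the phloem was above detection in pollen, at 504 ± 123, against 702 to 3519.98 in the 6 tissues. The part of these markers in the results was not tested.

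Fewer cells with a transcript and less RNA per cell cannot be told apart in such samples. Across the 8 sample types the 5 genes fell into 3 kinds of profile. RAB7A, RABH1d and SGP2 were high in both root hairs and pollen, RABA1e was high in root hairs alone, and RABE1e was low in both and present in every tissue. For reference, 19.2% of all probe sets were called higher and 69% lower in root hairs than in the mean of siliques, ovules, unpollinated pistils and leaves (the 4 tissues below), and 21.2% were called higher and 64.5% lower in pollen.

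**Figure D1:**
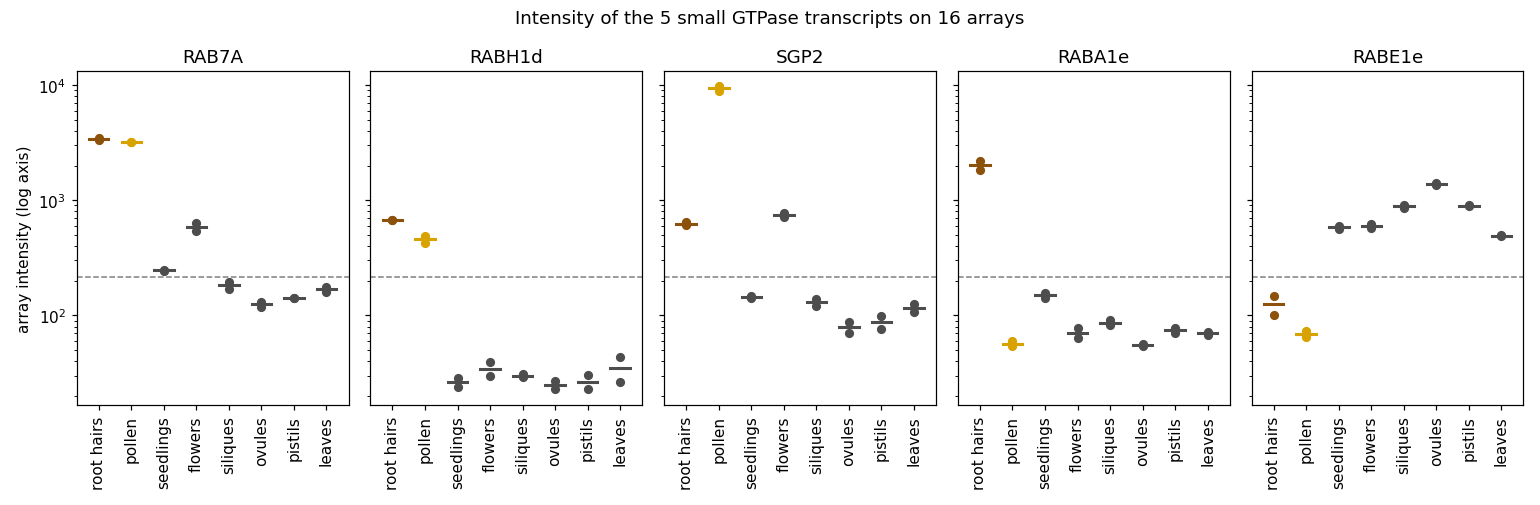
Array intensity on a logarithmic axis of the 5 small GTPase transcripts in 8 sample types. Points are the 2 replicates, horizontal bars their mean, and the dashed line is the detection level of 216. RAB7A, RABH1d and SGP2 were above the line in both root hairs and pollen, RABA1e in root hairs only, and RABE1e in the 6 tissues only.

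RAB7A (AT2G21880) is a late endosomal Rab of the RABG subgroup. Without further scaling of the arrays, it was the most evenly shared of the 5 between root hairs and pollen. Its intensity was 3463 and 3349 in root hairs and 3182 and 3228 in pollen. Flowers had 537 and 636, and seedlings 249.9 and 243. These sample types were all above the detection level, and none of them overlapped with another. Siliques followed with 196 and 170.2, leaves with 177 and 159, pistils with 142 and 140.4, and ovules with 119 and 130.1. The arrays of these 4 tissues were all below the detection level. The lowest root hair or pollen array was far above the highest tissue array of 636, that of a flower.

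Mean RAB7A intensity was 3406 ± 80.7 in root hairs and 3205 ± 32.2 in pollen (SD, n = 2 each), a log2 difference between them of 0.09. Set against the detection level, because the 4 tissues lay below it, RAB7A was at least 15.8-fold higher in root hairs and at least 14.9-fold higher in pollen. The measured log2 differences from the 4 tissues, on the scale of log2(intensity + 71.9), were 3.95 and 3.87. That scale understates changes of transcripts that are dim in the tissues. For RAB7A in root hairs and pollen, quantile normalization gave 4.15 and 4.12, but scaling by the 75th percentile gave 4.77 and 5.56. Under the latter, RABH1d (3.52 and 3.82) and RABE1e (-1.52 and -1.48) were closer between both cells than RAB7A.

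RABH1d (AT2G22290) belongs to the subgroup of Rabs of the Golgi. Root hair arrays gave 674 and 675, and pollen arrays 492 and 423. Its level was at or below 43.8 on all 12 tissue arrays, so the groups were far apart. Seedlings had 23.65 and 28.7, flowers 29.7 and 39.0, and siliques 30.7 and 28.9. Ovules had 26.9 and 23.1, pistils 22.7 and 30.1, and leaves 26.3 and 43.8. Ranked by level, each pair of neighbouring tissues had overlapping arrays. RABH1d was thus below detection in all 6 tissues, including flowers and seedlings, which hold pollen and root hairs.

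Root hairs averaged 674 ± 1.07 and pollen 457 ± 48.5 (SD, n = 2 each) for RABH1d, a log2 difference of 0.50 between both cell types. Compared with the detection level, the transcript was at least 3.13-fold higher in root hairs and at least 2.12-fold higher in pollen. The difference from the 4 tissues was 2.89 in root hairs and 2.39 in pollen on the log2 scale. It was 3.25 and 3.71 after quantile normalization, and 3.52 and 3.82 after scaling by the 75th percentile. Which of both cells was higher in RABH1d therefore turned with the scaling of the arrays. RABH1d is also the only one of the 5 for which the files held a sequence, the primer pair with which the study amplified its transcript by RT-PCR. Both are shown 5′ to 3′, and the capitals mark the ATG triplet in the forward primer.
RABH1d forward primer: agaagaATGgcgtcggtgtca
RABH1d reverse primer: gctttcgcgctcgtct

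SGP2 (AT3G21700) was highest in pollen and had the largest log2 difference from the 4 tissues among the 5 genes. Pollen arrays read 9802 and 8910.4, and root hair arrays 603 and 640.3. Flowers were at 779 and 708, above both root hair arrays without overlap. No other sample type reached the detection level. Seedlings had 148 and 140.4, siliques 139.6 and 121, leaves 108 and 124, pistils 75.5 and 98.9, and ovules 87.7 and 70.0. Siliques overlapped with leaves, and pistils with ovules.

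Mean SGP2 intensity was 622 ± 26.2 in root hairs and 9356 ± 630.5 in pollen (SD, n = 2 each). The pollen mean was 15.05 times that of root hairs, a log2 difference of -3.76 for root hairs minus pollen. Against the detection level, SGP2 was at least 43.4-fold higher in pollen and at least 2.88-fold higher in root hairs. The log2 differences from the 4 tissues were 5.76 in pollen and 2.00 in root hairs.

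RABA1e (AT4G18430) belongs to the RABA1 subgroup of the trans-Golgi network. Its 2 root hair arrays read 1822 and 2189, and pollen arrays 53.8 and 59.4. Seedlings, which contain root hairs, were next with 141 and 157.5, below the detection level but above each of the other arrays outside root hairs. Siliques had 82.15 and 91.1, and pistils 77.0 and 70.7. Flowers had 63.4 and 78.3, leaves 72.2 and 67.3, and ovules 53.7 and 55.8. Pollen overlapped with ovules, which had the lowest level of all.

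RABA1e averaged 2005.6 ± 260.05 in root hairs and 56.6 ± 4.00 in pollen (SD, n = 2 each), a log2 difference of 4.01. Measured against the detection level, it was at least 9.30-fold higher in root hairs. Its log2 difference from the 4 tissues was 3.86 in root hairs and -0.15 in pollen. The sign of the small pollen difference turned with the scaling of the arrays, to 0.05 when arrays were quantile normalized and to 0.85 when each was scaled by its 75th percentile.

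RABE1e (AT3G09900), of the subgroup for transport from the Golgi to the plasma membrane, had the reverse profile. Its intensity was 148 and 102 in root hairs and 73.5 and 65.3 in pollen. Every tissue array was above the detection level. Ovules were highest with 1413 and 1348.5, followed by pistils with 891 and 906 and siliques with 861 and 910.5. Flowers had 623 and 578, seedlings 597 and 562, and leaves 494 and 485. Pistils and siliques overlapped, as did flowers and seedlings, whereas ovules stood above and leaves below the rest.

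Root hairs averaged 125 ± 32.8 and pollen 69.4 ± 5.76 (SD, n = 2 each) for RABE1e, both below detection. The mean of the 4 tissues was at least 4.23 times the level in either, which is its ratio to the detection level. The log2 difference from the 4 tissues was -2.26 in root hairs and -2.72 in pollen. RABE1e stayed below its tissues when arrays were quantile normalized, at -1.35 for root hairs and -2.27 for pollen, and when they were scaled by the 75th percentile, at -1.52 and -1.48.

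As a description over the means of the 8 sample types, which share their arrays, the profile of RAB7A was closest to that of RABH1d (Pearson's r = 0.95, n = 8) and then to that of SGP2 (0.85). RABE1e ran opposite to these 3 genes, with r of -0.94 to RAB7A, -0.92 to RABH1d and -0.84 to SGP2. RABA1e had r of 0.67 to RABH1d, 0.58 to RAB7A and 0.08 to SGP2.

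Seedlings and flowers were compared in limma, with p-values adjusted over all 22746 probe sets. The means compared came from arrays other than those of root hairs and pollen, but the spread was pooled over all 16 arrays. Flowers hold pollen and seedlings hold root hairs, so for genes chosen for a high level in one of these cells the direction is in part set by that choice, and their p-values are no independent support for it. Of the 5 genes, RABA1e was higher and RAB7A and SGP2 were lower in seedlings than in flowers, and RABH1d and RABE1e did not pass the test. Across all probe sets 37.7% were called higher and 15.8% lower in seedlings. These calls were the same under every alternative.

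SGP2 had 144 ± 5.28 in seedlings, below the detection level, and 744 ± 50.2 in flowers (SD, n = 2 each). It was lower in seedlings by a log2 difference of -1.92 (SE 0.10, adjusted p = 2.5e-10 from limma), and its flower mean was at least 3.45 times that of seedlings. RAB7A had 246 ± 5.12 in seedlings and 586 ± 69.6 in flowers, a log2 difference of -1.05 (SE 0.09, adjusted p = 6.8e-08 from limma), and the flower mean was 2.38 times that of seedlings. Pollen markers moved with these results: 0 of 7 were above detection in seedlings and 6 of 7 in flowers, and their summed intensity was 463 to 514 on the seedling arrays and 4830 to 4882 on the flower arrays. Their part in the result was not tested. Flower intensity was 7.95% of pollen intensity for SGP2 and 18.3% for RAB7A, RABH1d being below detection in flowers, and the summed pollen markers were 8.55 times as high in pollen as in flowers.

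RABA1e had 149 ± 11.97 in seedlings and 70.8 ± 10.6 in flowers (SD, n = 2 each), and was higher in seedlings by 0.63 on the log2 scale (SE 0.09, adjusted p = 1.9e-05 from limma). Both levels were below detection, so no fold is given. Of the 7 root hair markers, COBL9, a wall protein of growing root hairs, was at 349 ± 7.96 in seedlings and 124 ± 11.9 in flowers. EXPA7 was at 131 ± 1.499 in seedlings and 80.2 ± 6.26 in flowers. The summed root hair markers had 974.8 to 979.8 on the seedling arrays and 968 to 998 on the flower arrays, and 1 of 7 markers was above detection in each group, COBL9 in seedlings and MRH1 in flowers. MRH1 was also high in pollen, at 6059.6 ± 55.4, and the sum of the other 6, a selection made after seeing the values, was 773 in seedlings and 472 in flowers. Whether root hairs in the seedlings account for RABA1e was not tested. Seedling intensity was 7.23% of root hair intensity for RAB7A, and RABA1e, RABH1d and SGP2 were below detection in seedlings.

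RABE1e did not differ detectably, with 579.8 ± 24.9 in seedlings and 601 ± 31.7 in flowers and a log2 difference of -0.05 (95% interval -0.25 to 0.16, adjusted p = 0.72 from limma). For RABH1d the difference was -0.11 (95% interval -0.30 to 0.07, adjusted p = 0.28 from limma), with both levels far below detection.

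**Figure D2:**
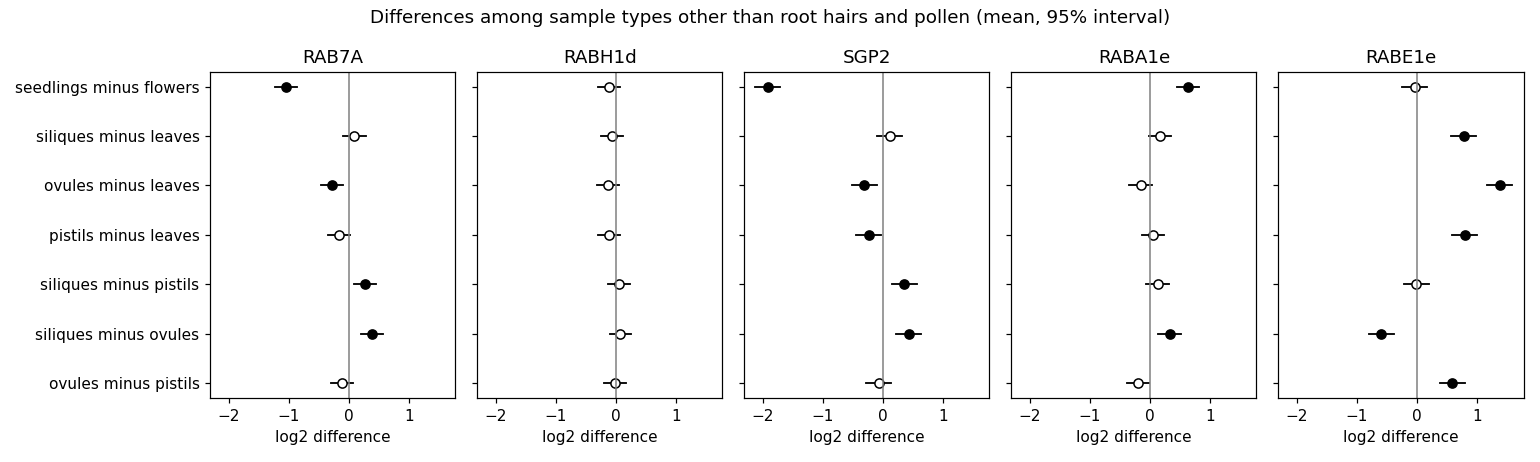
Log2 differences of the 5 genes between sample types other than root hairs and pollen, one panel per gene, with 95% intervals from limma. Filled points passed an adjusted p of 0.05 and open points did not. SGP2 and RAB7A lay left of 0 for seedlings minus flowers, and RABE1e was higher in ovules than in leaves by 1.37.

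Among leaves, pistils, ovules and siliques, RABE1e varied most and was the only one of the 5 genes above detection. It passed in 5 of the 6 pairs of these tissues, and of all probe sets 57.9% passed in either direction for siliques and leaves, 66.9% for ovules and leaves, 56.6% for pistils and leaves, 49.4% for siliques and pistils, 54.4% for siliques and ovules and 51.4% for ovules and pistils. Ovules had 1381 ± 45.5 and leaves 490 ± 6.89 (SD, n = 2 each), 2.82 times as much in ovules and a log2 difference of 1.37 (SE 0.10, adjusted p = 6.0e-09 from limma). Pistils exceeded leaves by 0.79 and siliques exceeded leaves by 0.77 (adjusted p = 5.2e-06 and 6.4e-06 from limma). Ovules exceeded pistils, from which they were dissected, by 0.58 (adjusted p = 1.4e-04 from limma), and siliques lay below ovules, with a difference of -0.60 (adjusted p = 8.1e-05 from limma). Siliques and pistils did not differ detectably, at -0.02 (95% interval -0.23 to 0.19, adjusted p = 0.90 from limma). That pair passed after quantile normalization, at -0.34, and after scaling to the 75th percentile, at -0.28. The 2 measured markers of dividing cells had a summed intensity of 2985 to 3272 in ovules, 4069 to 4083 in siliques, 1217 to 1339 in pistils and 318 to 371 in leaves. Singly, PCNA1 was highest of these tissues in ovules, at 1847 ± 295, and KNOLLE in siliques, at 3092 ± 67.6. Both were lowest in leaves. The part of these markers in the RABE1e result was not tested.

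The other 4 genes were below the detection level in all 4 tissues, and their differences there were small. SGP2 passed in 4 pairs, RAB7A in 3, RABA1e in 1 and RABH1d in none, with no difference beyond 0.43 in size, so that 13 of the 30 tests over the 5 genes passed. Siliques exceeded ovules for SGP2 by 0.43, for RAB7A by 0.38 and for RABA1e by 0.32 (adjusted p = 0.0016, 0.0017 and 0.0053 from limma). At 4 times the pseudocount RABA1e fell to 0.13 and no longer passed (adjusted p = 0.080 from limma). Single arrays and array scaling decided several of the smaller calls. RAB7A no longer passed for ovules minus leaves, -0.29 in the full fit, without ovule replicate 1 (-0.25) or leaf replicate 1 (-0.23), nor for siliques minus pistils, 0.26, without silique replicate 1 (0.18), pistil replicate 1 (0.26) or pistil replicate 2 (0.25). The RAB7A call for siliques minus pistils was also lost with quantile normalization (0.13), with scaling by the 75th percentile (0.05) and at 4 times the pseudocount (0.13). SGP2 lost the call for ovules minus leaves, -0.32, without ovule replicate 2 (-0.23) or leaf replicate 2 (-0.25), and that for siliques minus pistils, 0.35, without pistil replicate 1 (0.24) or silique replicate 1 (0.28), and with scaling by the 75th percentile (0.15). Its call for ovules minus leaves was lost at 4 times the pseudocount too (-0.14). Its call for pistils minus leaves, -0.24 with an adjusted p of 0.046 from limma, was lost on leaving out any of 8 arrays, with values between -0.24 and -0.14, and also with the replicate number as a block, at an adjusted p of 0.055. All of these levels were below detection, and the calls that follow were gained rather than lost. RABH1d passed for ovules and for pistils minus leaves without leaf replicate 1, at -0.26 and -0.24. RABA1e passed for ovules minus pistils, -0.20, on leaving out root hair replicate 1 or 2, at the same value.

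To see how the members stand within their family, 57 Rab genes were listed by locus, and 35 of them other than RAB7A, RABH1d, RABA1e and RABE1e had a named probe set. Of these, 23 were named only through study tables whose entries had been picked by measured values, and 12 were named without use of values. Counts over the 23 are therefore no even sample of the family. Among the 23 are RABG3d, RABG3e, RABG3f, RABH1e, RABA1f, RABA1g, RABE1d and RABA4c. Their adjusted p-values below are no independent support for the directions. In root hairs 20 of the 35 were higher and 10 lower than the 4 tissues, beside 19.2% and 69% of all probe sets, with a median log2 difference of 0.33 against -0.50 over all probe sets. In pollen 9 were higher and 22 lower, beside 21.2% and 64.5% of all probe sets, with a median of -0.76 against -0.60 over all probe sets. Among the 12 named without values, 3 were higher and 8 lower in root hairs. In pollen 2 were higher (1 without pollen replicate 2) and 9 lower. These shares lay near those of all probe sets, but not so in root hairs under the 2 other scalings. There 8 of the 12 were higher and 2 lower under each, beside 42% or 42.6% and 39.6% of all probe sets. In pollen 5 of the 12 were higher under each, beside 45.9% and 61.7%. Scaling moved the splits of the 35 too: quantile normalization gave 29 higher and 3 lower in root hairs (42% and 39.6% of all probe sets) and 21 higher and 10 lower in pollen (45.9% and 41.8%). Scaling by the 75th percentile gave 30 and 3 in root hairs (42.6% and 39.6%) and 24 and 7 in pollen (61.7% and 29.7%). All 20 and all 9 higher calls held under both, but of the lower calls 3 of 10 held in root hairs and 7 of 22 in pollen, and 12 of the 22 turned into higher calls under at least 1 scaling. Both scalings raised the median over all probe sets, to 0.02 and 0.03 in root hairs and to 0.05 and 0.58 in pollen. A higher call was therefore unlikely to be lost, and that these calls held is no support for them.

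**Figure D3:**
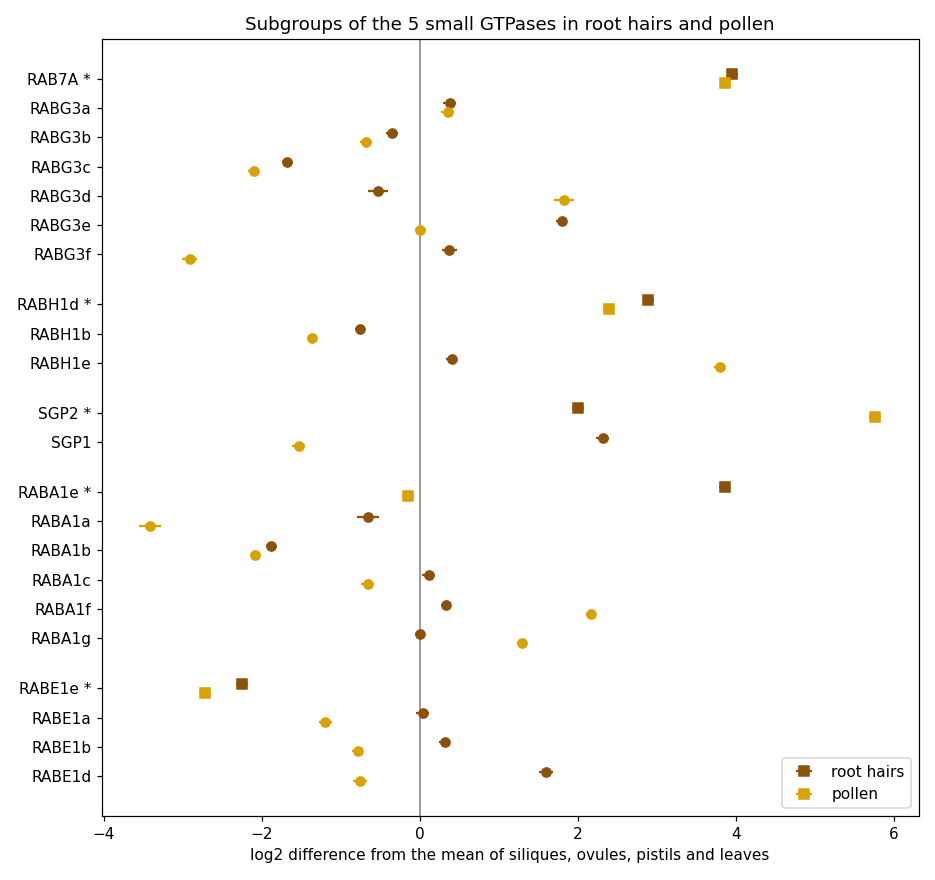
Log2 difference from the mean of siliques, ovules, pistils and leaves in root hairs (brown) and pollen (yellow) for RAB7A, RABH1d, SGP2, RABA1e and RABE1e (squares, marked by an asterisk) and their named subgroup relatives (circles), with bars of 1 SE. RAB7A lay right of all 6 named RABG3 genes in both cells, and RABE1e left of its 3 relatives.

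In the RABG subgroup, none of the 6 named relatives of RAB7A had differences as large as its own in both cells. RABG3e rose in root hairs by 1.79 (SE 0.07, adjusted p = 2.1e-12 from limma), with 4441 and 4636 in root hairs against 997 to 1475 on the 8 arrays of the 4 tissues. Its pollen difference was 0.00, but it was called higher in pollen under both other scalings, at 0.93 and 1.78. RABG3d rose in pollen by 1.82 (SE 0.13, adjusted p = 1.7e-09 from limma), with 2585 and 2499.9 against 428 to 993. In root hairs RABG3d was lower by -0.54, a sign that turned under both other scalings. RABG3f was at 72.6 and 86.4 in pollen, below detection, and at 867 to 1372 in the 4 tissues, a difference of -2.91 (adjusted p = 1.2e-13 from limma), whereas it was 0.37 higher in root hairs. RABG3c fell in both cells, with log2 differences of -1.68 in root hairs and -2.11 in pollen, and RABG3a was higher in both by 0.38 and 0.35. RABG3b was lower by -0.36 and -0.69, and both signs turned under the other scalings.

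RABH1e was the relative nearest to RABH1d in pollen. It had 1430 and 1476 in pollen against 16.6 to 111 on the arrays of the 4 tissues, a log2 difference of 3.79 (SE 0.07, adjusted p = 1.7e-16 from limma), and it was the highest of the 35 Rab genes there. In root hairs, at 89.9 and 59.2, it was below detection, where its log2 difference was 0.40. The root hair level of RABH1e differed from its pollen level by -3.39 (adjusted p = 1.9e-14 from limma), while RABH1d was above detection in both cells. RABH1b, another Golgi Rab, had 285 and 317 in root hairs. Its pollen arrays read 171 and 173, and the arrays of the 4 tissues 458 to 686, with differences of -0.76 and -1.37 whose signs turned under both other scalings.

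In the RABA1 subgroup, RABA1f and RABA1g rose in pollen, where RABA1e was below detection. RABA1f had 1339 and 1375 in pollen, where the arrays of the 4 tissues read 105 to 485, a difference of 2.16 (SE 0.06, adjusted p = 3.9e-14 from limma), and it was higher in root hairs by 0.33. RABA1g had 470.1 and 452 in pollen against 104 to 206, a difference of 1.29 (SE 0.07, adjusted p = 2.9e-11 from limma), and 0.00 in root hairs, where it was called higher under both other scalings, at 0.87 and 0.66. RABA1a was the lowest of the 35 Rab genes in pollen, with 72.0 and 87.8 against 1252 to 2029 and a difference of -3.42 (adjusted p = 1.5e-12 from limma). RABA1b fell in both cells, with log2 differences of -1.88 for root hairs and -2.08 for pollen, and was the lowest of the 35 in root hairs. RABA1c differed by 0.11 in root hairs, where the other scalings called it higher, and by -0.66 in pollen, where its sign turned under both.

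No named relative of RABE1e was low in both cells. RABE1d rose in root hairs by 1.59 (SE 0.09, adjusted p = 1.4e-10 from limma), with 3657 and 3525 against 773 to 1363 in the 4 tissues. In pollen it had 623 and 667, a difference of -0.76 that turned to 0.58 and 0.97 under the other scalings. RABE1b differed by 0.31 in root hairs and -0.79 in pollen, with a turned pollen sign under 1 scaling. RABE1a differed by 0.03 in root hairs, where both scalings called it higher, and by -1.20 in pollen, where its sign turned under both.

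SGP1, the relative of SGP2, rose in root hairs and fell in pollen. Its intensity was 2129 and 1631 in root hairs and 64.35 and 60.9 in pollen, and it ranged over 167 to 599.9 on the arrays of the 4 tissues. The log2 difference was 2.31 in root hairs (SE 0.08, adjusted p = 4.8e-13 from limma) and -1.54 in pollen (SE 0.08, adjusted p = 5.1e-11 from limma), and both signs held under the other scalings. The difference of root hairs minus pollen was 3.85 for SGP1 (adjusted p = 2.5e-14 from limma) and -3.76 for SGP2. SGP1 thus exceeded detection in root hairs and 5 of the 6 tissues but not in pollen or ovules, whereas SGP2 did so in root hairs, pollen and flowers.

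Root hairs exceeded pollen in 24 of the 35 other Rab genes and lay below it in 7, against 35% and 42.6% of all probe sets, with a median of 1.13 against -0.10 over all probe sets. Among the 12 named without values the counts were 8 and 1, and the lower count was 3 without root hair replicate 1 and 2 without pollen replicate 1. The counts were 20 and 12 after quantile normalization (35.1% and 44.8% of all probe sets) and 20 and 13 with the other scaling (23.9% and 67.9%). Of the 24 higher calls 20 held under both other scalings, and all 7 lower calls did. The median over all probe sets was -0.11 after quantile normalization and -0.70 with the other scaling, which favours lower calls under the latter. Besides the genes above, RABA4c belongs to the subgroup best known for root hair and pollen tube growth, of which no other gene had a named probe set. RABA4c rose in root hairs by 1.77 (SE 0.05, adjusted p = 5.6e-14 from limma), with 366 and 387 against 49.2 to 84.6. It was below detection elsewhere, with 52.25 and 54.8 in pollen, where scaling by the 75th percentile, but not quantile normalization, called it higher. RABB1c rose in both cells, by 1.01 in root hairs and 2.02 in pollen, and RABA2a fell in both, at -1.13 and -2.23. RABD2c, of the subgroup for transport between endoplasmic reticulum and Golgi, rose by 1.15 in root hairs and fell in pollen, at -2.30.

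**Figure D4:**
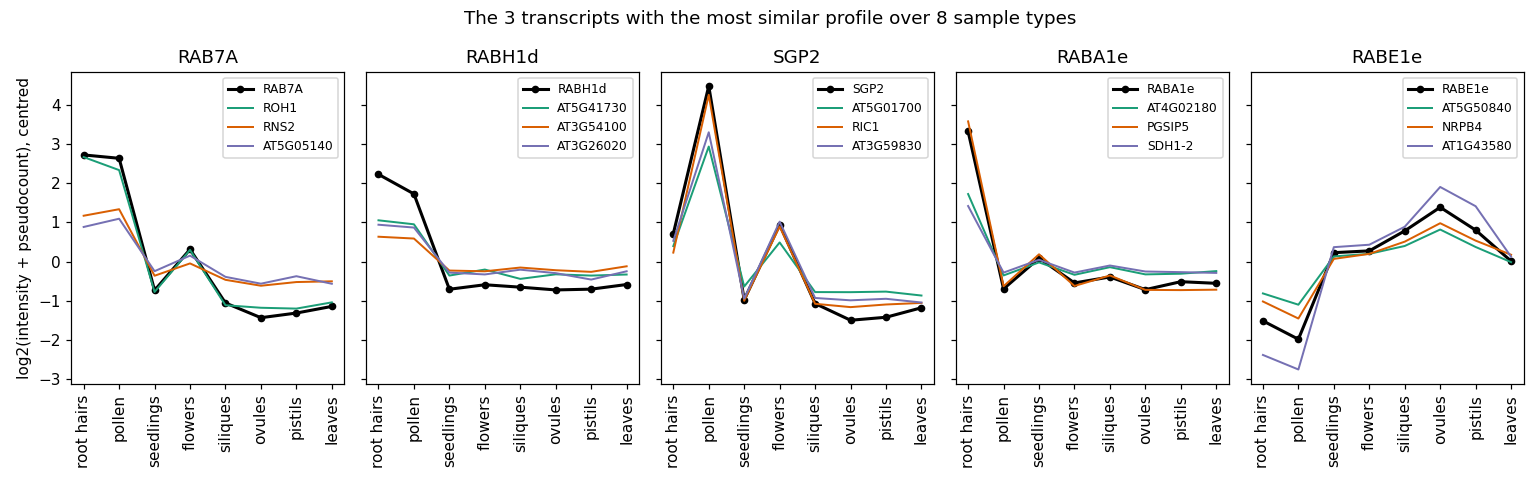
Mean log2(intensity + pseudocount) of RAB7A, RABH1d, SGP2, RABA1e and RABE1e (black) in 8 sample types, centred on each gene's mean, with the 3 transcripts of highest Pearson's r (coloured). ROH1 followed RAB7A at r = 0.998 and RIC1 followed SGP2 at r = 0.994.

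Among 10664 other probe sets of 1 named gene above detection somewhere, the profile most like that of RAB7A was that of ROH1, known as a partner of an exocyst subunit (r = 0.998 over the 8 sample type means), whose mean was 1491 ± 107 in root hairs, 1169 ± 16.8 in pollen and 35.7 to 48.1 in the 4 tissues. RNS2, a ribonuclease of the vacuole, and AT5G05140 followed at 0.992 and 0.989. For SGP2 these were AT5G01700, RIC1 and AT3G59830, at 0.996, 0.994 and 0.994. RIC1, an effector of ROP GTPases, averaged 375 ± 8.77 in root hairs, 7186 ± 299 in pollen and 98.9 to 112 in the 4 tissues (SD, n = 2 each). For RABA1e, AT4G02180, PGSIP5 and SDH1-2 came first, at 0.998, 0.998 and 0.997, and PGSIP5 had 1693 ± 304 in root hairs and 23.4 ± 0.884 in pollen.

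For RABE1e the first were AT5G50840, NRPB4, a subunit of RNA polymerase II, and AT1G43580, at 0.998, 0.995 and 0.995. AT1G43580 was at 114 ± 24.9 in root hairs, 71.3 ± 2.57 in pollen and 3525 ± 86.7 in ovules. RABH1d was most similar to AT5G41730, AT3G54100 and AT3G26020, at 0.993, 0.991 and 0.990. With 8 points and profiles that are nearly flat in most tissues, many transcripts lay close together. Under quantile normalization, scaling to the 75th percentile or Spearman's rho, between 0 and 2 of the 3 names per gene were retained, and ROH1 was retained for RAB7A under both scalings. None of the 3 names of RABH1d was retained under any of these.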

How the data were processed

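Per the study's methods, the authors hybridised root hair RNA to ATH1 arrays in duplicate and computed model-based expression with dChip over these and arrays of earlier studies, 16 in all; the deposited values are linear intensity values per probe set, while GCOS 1.4 and MAS5, in the submitters' processing notes, gave detection calls, not used here. No probe-level step was repeated here. Intensities were transformed as log2(intensity + 71.9), where 71.9 is the median of the 20th percentiles of the 16 arrays. After leaving out 64 controls, 22746 probe sets were fitted with limma 3.58.1 in R 4.3.3, estimating 1 mean for each sample type (8 residual degrees of freedom) with a variance trend. Adjusted p-values follow Benjamini and Hochberg, and calls used 0.05. The fit was tested on simulated data.

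Probe sets were named from the platform annotation (13513 with 1 gene) and from study tables (814 listed by locus, 1248 picked by values). The members, gene lists and named genes were chosen with earlier results of these data known. Named were all members, their subgroup relatives, the 3 highest and 3 lowest other Rab genes per cell type, Rab genes called in opposite directions, the extremes of other lists and the 3 most similar profiles. Closely related Rab transcripts may share probe signal, which was not tested. Tables used Python 3.11.15, pandas 2.3.3, numpy 2.4.6 and matplotlib 3.10.9. Alternatives were 2 array scalings, 2 pseudocounts, a detection filter, no trend, fewer arrays in the fit, each tissue in place of their mean, a replicate block and leaving out each array. The number of 2 arrays per sample type limits the precision.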

Additional observations from a re-analysis of the deposited data

Results flagged for a closer look

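Other Rab genes were singled out where root hairs and pollen departed from the 4 tissues in opposite directions and the difference of root hairs minus pollen itself passed in limma. The 13 genes higher in root hairs and lower in pollen had log2 differences of root hairs minus pollen of 1.72 for RABA2c, 3.15 for RABA2d, 1.97 for RABA5e, 1.24 for RABB1b, 1.89 for RABC1, 2.33 for RABC2a, 1.77 for RABD2b, 3.46 for RABD2c, 1.10 for RABE1b, 2.35 for RABE1d, 2.66 for RABF1, 1.13 for RABF2a and 3.28 for RABG3f. The 2 genes lower in root hairs and higher in pollen were RABA2b at -1.08 and RABG3d at -2.36. How many of all probe sets had such opposite calls was not counted, so these numbers do not set the Rab genes apart. All 15 differences of root hairs minus pollen kept their call under both other scalings of the arrays, but the opposite calls against the tissues held only for RABD2c and RABG3f under both. SGP1, set beside SGP2 in the report, was singled out for the same reason, at 3.85.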

How the results depend on the processing

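Of the seedling and flower results of the 5 genes, no alternative changed a call. The 13 passing tests among the 4 tissues ranged from 10 to 14 on leaving out single arrays and numbered 9 with 4 times the pseudocount. After quantile normalization, the other Rab genes were lower in root hairs in 3 cases, higher in pollen in 21 and lower in pollen in 10, and root hairs lay below pollen in 12; after scaling to the 75th percentile these counts were 3, 24, 7 and 13. For the Rab genes named without values, quantile normalization gave 8 higher and 2 lower in root hairs, 5 higher in pollen and 3 lower in root hairs than in pollen. The other scaling gave 8, 2, 5 and 5, and 4 lower in pollen. These counts are to be read beside the shares of all probe sets given above for each scaling. Requiring a difference from each tissue in place of their mean is stricter, and the share of all probe sets under it was not counted. By that rule 12 other Rab genes were higher and 5 lower in root hairs. Of those named without values, 4 were lower in root hairs and 1 was higher in pollen. Leaving out dim probe sets also gave 1 higher in pollen. On leaving out single arrays that count was 1 to 2 (1 without pollen replicate 2), and root hairs lay below pollen in 1 to 3 (3 without root hair replicate 1, 2 without pollen replicate 1). The small pollen difference of RABA1e, -0.15, turned to 0.052 with quantile normalization and 0.854 with the other scaling. Scalings moved the median pollen difference of all probe sets to 0.05 and 0.58 and the root hair one to 0.02 and 0.03, so directions near these medians are relative to the scaling; the cause was not tested.

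Replicate numbers were shared across sample types, but samples of the same number did not in general deviate together (28 pairs of sample types, r between -0.37 and 0.19, median -0.02, 2 over 0.1). A deviation shared across different numbers, which would give a negative r, was not tested. With the replicate number as a block, 12 of the 13 calls among the 4 tissues remained in number, and seedlings against flowers gave 1 higher and 2 lower gene as before. Signal over background limits all values below 216.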

Other observations

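Beyond the Rab family, 20 genes of the ARF, ARL and SAR1 families of small GTPases had a named probe set. In root hairs 5 were higher and 12 lower, and in pollen 5 were higher and 14 lower than the 4 tissues. Without further scaling these counts lay near the shares of all probe sets (19.2% and 69% in root hairs, 21.2% and 64.5% in pollen). Their medians were -0.21 in root hairs and -1.24 in pollen, against -0.50 and -0.60 over all probe sets. With quantile normalization 11 were higher and 5 lower in root hairs (42% and 39.6% of all probe sets). In pollen the counts were then 9 and 9 (45.9% and 41.8%). Scaling by the 75th percentile gave 16 and 2 in root hairs (42.6% and 39.6%) and 12 and 6 in pollen (61.7% and 29.7%). Of the 20, 11 were named through tables picked by values. ARFC1 was the highest in root hairs (1.46) and ARLA1a the lowest (-2.48), and in pollen ARFA1b was the highest (2.57) and the SAR1 gene AT3G62560 the lowest (-2.74). Of 11 ROP GTPases listed, only 2 had a named probe set, ROP5 through a table picked by values. ROP2 differed by 0.53 in root hairs and -2.73 in pollen, and ROP5 by 0.18 and 0.69. MIRO2, a GTPase of the mitochondrial outer membrane, differed by 1.13 in root hairs and -0.76 in pollen, and its pollen sign turned to 0.87 and 0.86 under the other scalings.

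Of 5 measured genes that act on Rab GTPases, 1 was higher and 3 lower in root hairs, beside 19.2% and 69% of all probe sets. In pollen 1 was higher and 4 lower, beside 21.2% and 64.5%. Under quantile normalization 4 were higher and 0 lower in root hairs (42% and 39.6%), and 2 higher and 1 lower in pollen (45.9% and 41.8%). With the other scaling the counts were 4 and 0 in root hairs (42.6% and 39.6%) and 2 and 0 in pollen (61.7% and 29.7%). The highest in pollen was AT5G09550, a GDP dissociation inhibitor, which takes inactive Rabs off membranes. It had 2584 and 2572 in pollen against 69.5 to 99.9 on the arrays of the 4 tissues, a log2 difference of 4.12 (SE 0.08, adjusted p = 1.9e-16 from limma), with 424 and 421 in flowers. Its probe set was named through a study table picked by values, so this p-value is no independent support for the direction. In root hairs AT5G09550 was at 42.9 and 34.8, below detection. GDI2, of the same kind, was the highest of the 5 in root hairs, by 0.89, and the lowest in pollen, at -1.82, which was -0.07 after scaling to the 75th percentile.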
